A study of Canis lupus familiaris with 13 samples.

Results

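The messenger RNA levels of 8 genes of adrenergic, angiotensin and endothelin signalling were followed in dog heart tissue: the peptides ADM and EDN1, the receptors EDNRA, AGTR1, AGTR2 and ADRA1A, the cyclic AMP-making enzyme ADCY6 and the G protein regulator RGS2. The members were all probe sets whose array annotation gives the symbol of 1 of these genes alone, a probe set being a group of short probes read out as 1 value. There were 14 such probe sets, of 23836 in all, and 8 genes, of 6540 with a probe set of 1 symbol. After probe sets of low mean signal (under 108) were left out, 8 of the 14 were tested, 1 for each gene, and the other 6 are described at their measured values.

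The 13 samples, with 1 array each, came from 2 breeds with dilated cardiomyopathy, 3 Dobermans named K, L and R and 4 Boxers numbered 1 to 4, and from mongrels, of which 3 (LV01, LV02 and LV04) had pacing and 3 (P1, P4 and P9) were controls. Dilated cardiomyopathy is a heart muscle disease in which the ventricles enlarge and pump poorly, and pacing drives the heart beat through an electrode. The labels gave no allele, drug, age or sex, no rate or length of pacing and no chamber of the heart. There were no healthy dogs of either breed, so breed and disease cannot be told apart where either breed is set against the control mongrels. The same holds against the paced mongrels, where pacing differs as well. Between Dobermans and Boxers, breed and the disease of each breed cannot be told apart either. The names were separate, but nothing in the labels says that each stood for a separate animal, and the p-values measure the spread between these samples. Of 13 cardiomyocyte markers, 11 were on the array and none was at 0, with a lowest signal of 3269.

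In the failing heart, noradrenaline, angiotensin II and endothelin act through receptors on muscle, vessel and connective tissue cells. The alpha-1 adrenergic, type 1 angiotensin and type A endothelin receptors couple to the G protein Gq, which releases calcium and activates protein kinase C, while beta receptors couple to Gs and adenylyl cyclases, which make cyclic AMP. RGS2 speeds the return of Gq to its inactive state, and adrenomedullin is a peptide that widens blood vessels.

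The array values were MAS5 signals, brightness estimates on a linear scale that the authors had brought to a common level. Changes below are differences of log2(signal + 16), with their standard error and an adjusted p from limma with Benjamini-Hochberg adjustment over all 14302 tested probe sets of that comparison, and a change passed where that p was under 0.05. The arrays differed in kind. The GAPDH 3'/5' ratio, the control signal from the end of that transcript over the signal from its start and a measure of RNA integrity, was 1.08 for Doberman K, 2.10 for L and 3.62 for R, against 0.967 to 1.09 on the other 10 arrays. Doberman arrays correlated with the rest of their group at a mean of 0.789 to 0.844, and the other arrays with theirs at 0.947 to 0.969. The median signal was 160 to 234 in the Dobermans, 132 to 146 in the Boxers, 208 to 219 in the paced dogs and 143 to 146 in the controls. Doberman differences that passed are therefore also given without L and R, where K stands alone and is assumed to vary like the other groups. No Doberman array enters the estimate for the other groups, so a fit without L and R alters only the spread, and with it the p, of their differences.

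Relative to the controls, the Dobermans had more RGS2 and EDN1 and less ADCY6 and EDNRA signal in the tested probe sets. The paced dogs had more RGS2 and AGTR2 and less ADCY6. Without L and R the Doberman differences were 1.76 for RGS2, 0.52 for EDN1, -0.55 for ADCY6 and -0.12 for EDNRA. The other 2 EDN1 probe sets, under the filter, were not higher in the Dobermans (-0.31 and -0.02). In the Dobermans 4 of the 8 tested members passed, 2 higher and 2 lower, where 25.5% of all tested probe sets passed (14.3% higher and 11.2% lower). In the paced dogs 3 of 8 passed, 2 higher and 1 lower, beside 12.2% of all (8.47% higher and 3.74% lower). In the Boxers 0 of 8 passed in limma, beside 0.042% of all (6 probe sets). At an unadjusted p under 0.05, 3 members and 7.4% of all tested probe sets passed in the Boxers. With array weights 2 members passed at an adjusted p under 0.05, beside 254 of all 14302 tested probe sets. The median change of the 8 members was 0.02 in the Dobermans, -0.03 in the Boxers and 0.55 in the paced dogs, against 0.19, -0.03 and 0.06 over all tested probe sets. The 3 comparisons share their control samples.

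**Figure D1:**
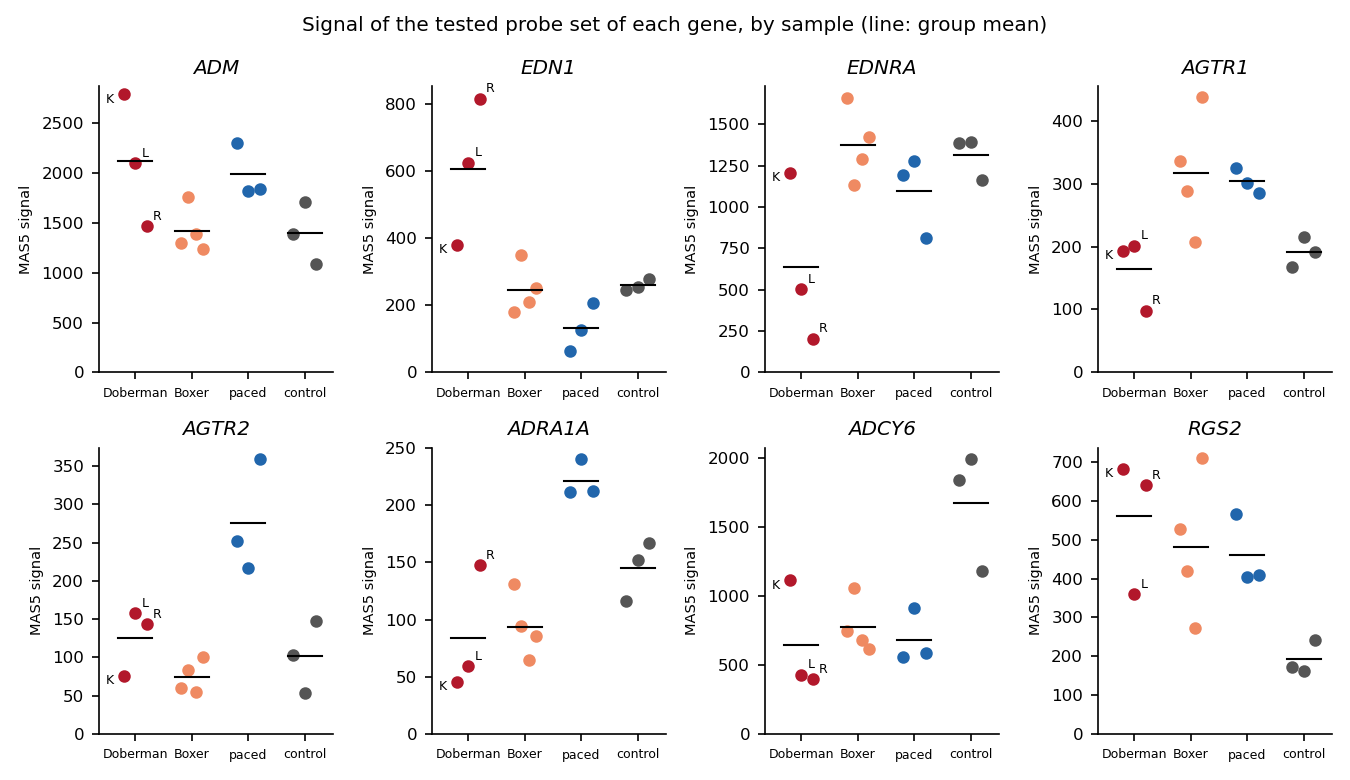
MAS5 signal (linear scale) of the tested probe set of each of the 8 genes, with 1 point per sample, lines at the group means and the Dobermans K, L and R lettered. All 3 paced and all 3 Doberman RGS2 values lay above the controls, and all ADCY6 values of the Dobermans, Boxers and paced dogs lay below them.

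RGS2, which shortens Gq signalling, was higher in Dobermans and in paced dogs. Probe set 1584614_at read 683, 361 and 641 in Dobermans K, L and R, and 528.5, 419, 272 and 710.4 in Boxers 1 to 4. It read 567, 404.5 and 409 in the paced dogs LV01, LV02 and LV04, against 173, 163 and 241 in the controls P1, P4 and P9. Each of the 10 diseased or paced samples lay above each of the 3 controls. RGS2 rose in the Dobermans by 1.44 ± 0.33 (log2, adjusted p = 0.013, limma), a 2.71-fold level, and in the paced dogs by 1.19 ± 0.33 (adjusted p = 0.0325). The Boxer difference of 1.20 ± 0.31 did not pass (adjusted p = 0.325), although its unadjusted p was 0.00177. Dobermans and Boxers differed by 0.24, with a 95% interval from -0.42 to 0.91.

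The RGS2 difference in the Dobermans passed in all 13 fits that left out 1 sample, and without both L and R it was 1.76 (adjusted p = 0.0474, limma). It did not pass after median centring (1.00, adjusted p = 0.0624), with the GAPDH ratio as a covariate (1.49, adjusted p = 0.138) or in a fit of only those groups (adjusted p = 0.110). The paced RGS2 rise did not pass without LV01, LV02, LV04, P1 or P4 (adjusted p 0.0634 to 0.120), after quantile normalization (0.94, adjusted p = 0.108) or after median centring (0.69, adjusted p = 0.173). The other RGS2 probe set, 1585658_at, was under the filter. It read 113, 493 and 509.8 in the Dobermans, 75.8, 72.0, 6.8 and 96.5 in the Boxers, and 140.4, 105 and 134 in the paced dogs, against 55.0, 56.8 and 88.8 in the controls. The Dobermans and the paced dogs again lay above every control, and the Boxers did not. In a limma fit with no filter it was 3.99-fold higher in the Dobermans than in the controls (adjusted p = 0.0397, where 15.6% of 23836 probe sets passed), and 4.83-fold higher than in the Boxers (adjusted p = 0.0144, where 25.6% passed). Without L and R, whose readings were the highest, it was 1.58-fold higher than in the controls (adjusted p = 0.732) and 1.91-fold higher than in the Boxers (adjusted p = 0.547). The 2 RGS2 probe sets had a correlation of 0.45 over the 13 arrays.

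ADCY6, which with ADCY5 is a main cyclic AMP-making enzyme of heart muscle, was lower in Dobermans and in paced dogs. Its signal was 1112, 429 and 395 in the Dobermans K, L and R, and 746, 1055, 683 and 615 in the Boxers. It was 554, 910.0 and 583.5 in the paced dogs, against 1842, 1995 and 1180.5 in the controls. No diseased or paced sample reached the lowest control. ADCY6 fell by 1.48 ± 0.36 in the Dobermans (log2, adjusted p = 0.0152, limma), to 0.359 times the control level, and by 1.27 ± 0.36 in the paced dogs (adjusted p = 0.0351). The Boxer difference was -1.09 ± 0.34, with an unadjusted p of 0.00616 and an adjusted p of 0.436.

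Doberman K lay nearest to the controls for ADCY6. Without L and R the Doberman difference was -0.55 (adjusted p = 0.446, limma), and with the GAPDH ratio as a covariate -0.64 (adjusted p = 0.383). Leaving out L, R, P1 or P4 alone also lost the call (adjusted p 0.0522 to 0.0606). The paced difference did not pass without LV01, LV04, P1 or P4 (adjusted p 0.111 to 0.122) or after quantile normalization (-1.23, adjusted p = 0.0651). Without Dobermans L and R the paced difference had an adjusted p of 0.0038.

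EDN1 encodes the precursor of endothelin-1, a peptide that constricts vessels and is made mainly by endothelial cells. Its tested probe set, 1588685_at, read 380, 624.5 and 815 in the Dobermans K, L and R, and 179.7, 349, 208 and 250.4 in the Boxers. It read 64.1, 126 and 208 in the paced dogs, against 247, 253 and 279 in the controls. The 3 Dobermans lay above all other samples, and the 3 paced dogs lay below all controls. EDN1 was 2.16-fold higher in the Dobermans than in the controls (log2 1.11 ± 0.37, adjusted p = 0.0418, limma). In the paced dogs it was -1.01 ± 0.37 relative to the controls and did not pass (adjusted p = 0.0874), and it passed without Dobermans L and R (adjusted p = 0.0389). It also passed without K alone (adjusted p = 0.0431) and without LV04 (-1.37, adjusted p = 0.0472). After quantile normalization the paced EDN1 difference was -1.45 (adjusted p = 0.0208, limma), and after median centring -1.52 (adjusted p = 0.00812). Over all tested probe sets, median centring moved the median paced difference from 0.06 to -0.45.

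EDN1 was the member with the widest gap between Dobermans and paced dogs, at 2.12 ± 0.37 (adjusted p = 0.00204, limma), a 4.36-fold difference, and 1.53 without L and R (adjusted p = 0.0467). It passed in 22 of 23 alternative fits and not with the GAPDH covariate (1.52, adjusted p = 0.0725). Against the Boxers the Dobermans were higher by 1.22 ± 0.34 (adjusted p = 0.0179), and by 0.63 without L and R (adjusted p = 0.458). This difference between Dobermans and Boxers did not pass without L (adjusted p = 0.0635) or R (adjusted p = 0.0779). The rise over the controls was 0.52 without L and R (adjusted p = 0.595), and it passed in 7 of 23 alternative fits. Leaving out any of L, R, Boxers 1, 3 and 4, LV02, P1, P4 and P9 lost the call (adjusted p 0.0507 to 0.140). In the Dobermans EDN1 ran in the order of the GAPDH ratio, K below L below R.

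The 3 EDN1 probe sets did not move together. Probe set 1583002_at, under the filter, read 52.5, 137 and 26.6 in the Dobermans and 103.7, 59.6, 82.5 and 124.8 in the Boxers. It read 262, 219 and 179 in the paced dogs, against 62.7, 79.7 and 97.4 in the controls, so the paced dogs had the highest readings, where in the tested probe set they had the lowest mean. In the limma fit with no filter it was higher in the paced dogs than in the controls by 1.30 (adjusted p = 0.0484, where 18.4% of probe sets passed) and lower in the Dobermans than in the paced dogs (-1.61, adjusted p = 0.0152, where 25.1% passed), and without L and R that Doberman difference was -1.77 (adjusted p = 0.0178). Over the 13 arrays it had a correlation of -0.74 with the tested probe set. The third, 1583003_at, read 74.4, 42.8 and 142.6 in the Dobermans, 112 to 137.5 in the Boxers and 35.8, 37.7 and 83.5 in the paced dogs, against 69.1, 98.0 and 75.5 in the controls. Its correlation with the tested set was 0.41. The tested set is the only one of the 3 for which the annotation listed no transcript accession, so a direction for EDN1 holds for that probe set and not for the gene as a whole.

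**Figure D2:**
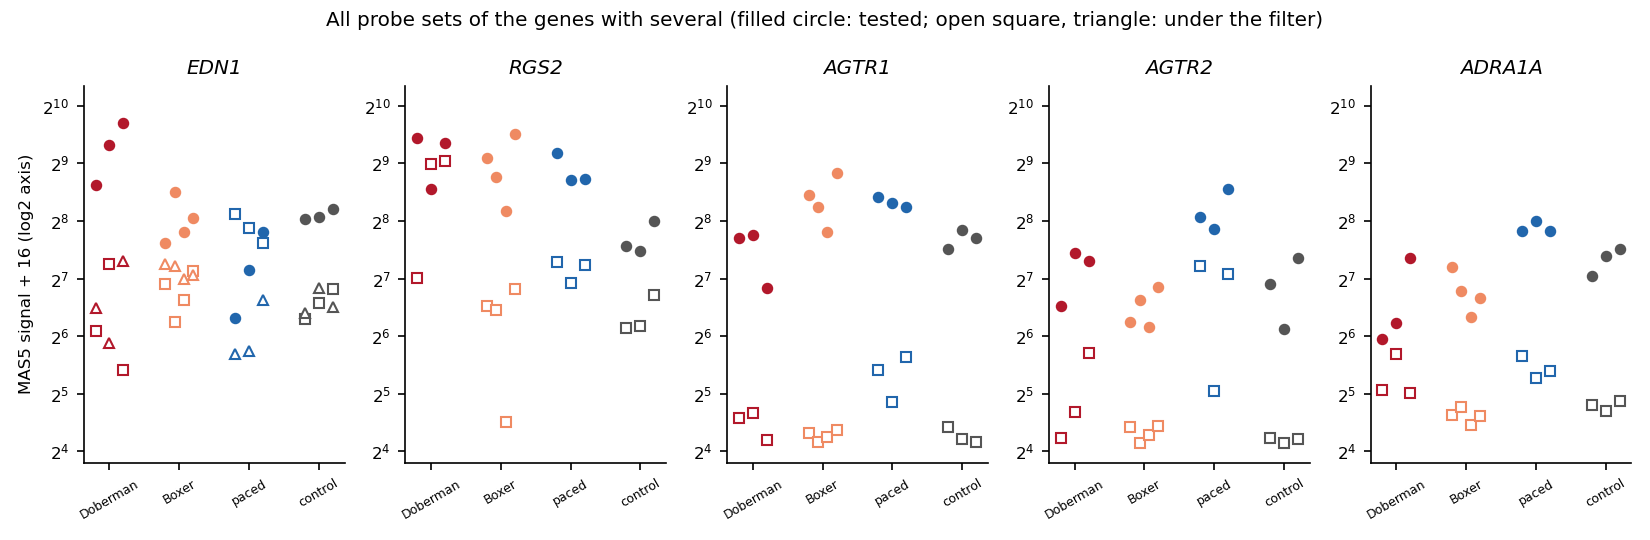
All probe sets of the 5 genes with more than 1, as MAS5 signal + 16 on a log2 axis, with 1 point per sample; filled circles are the tested probe sets, and open squares and triangles those under the filter. The paced dogs had the lowest mean for the tested EDN1 set and the highest for 1 of the other EDN1 sets and for both AGTR2 sets.

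EDNRA is the receptor through which endothelin-1 constricts smooth muscle and acts on heart muscle cells. Its signal was 1208, 503 and 204 in the Dobermans K, L and R, and 1659, 1136, 1291 and 1425 in the Boxers. It was 1194, 1278 and 812 in the paced dogs, against 1389, 1395 and 1163 in the controls. Only L and R lay under the range of the other arrays, and K lay within that of the controls. EDNRA fell by 1.35 ± 0.44 in the Dobermans relative to the controls (adjusted p = 0.0382, limma) and by 1.41 ± 0.41 relative to the Boxers (adjusted p = 0.0195). Boxers and controls differed by 0.06 (95% interval -0.82 to 0.93), and the paced dogs and controls by -0.28 (95% interval -1.22 to 0.65).

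The EDNRA differences rested on Dobermans L and R. Without them the Doberman value was -0.12 against the controls (adjusted p = 0.853, limma) and -0.17 against the Boxers (adjusted p = 0.733). With the GAPDH ratio as a covariate it was -0.06 against the controls (adjusted p = 0.928). Leaving out L, R, Boxer 3, P1, P4 or P9 alone also lost the comparison with the controls (adjusted p 0.0507 to 0.124), and leaving out L or R lost that with the Boxers (adjusted p 0.0619 and 0.0755). Within the Dobermans EDNRA ran opposite to the GAPDH ratio, K above L above R.

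Levels of markers of the vessel cells that make endothelin-1 or carry its receptor are set beside these results. The summed signal of 9 smooth muscle and pericyte markers, of 16 listed, was 51572 to 76182 in the Dobermans, 39981 to 47973 in the Boxers, 34805 to 41426 in the paced dogs and 31890 to 43019 in the controls. Of the 9, 2 lay above all controls in the Dobermans and 1 below, beside 20.9% and 12.6% of all tested probe sets. The Doberman sum was carried by DES, desmin, which heart muscle cells also express, at 18716, 45939 and 44678 in K, L and R, against 12766 to 15949 in the controls. Without DES, a sum added after seeing the data, the other 8 markers reached 22420 to 32856 in the Dobermans, 24457 to 31437 in the Boxers, 19402 to 25181 in the paced dogs and 19124 to 29337 in the controls. That sum without DES overlapped between the Dobermans and the controls. Some markers, picked from the list because they were lower in L and R, do not stand for it. MYLK read 5.4 and 3.4 in L and R, against 78.2 to 148.7 in the controls. KCNJ8 read 549.1 and 717.8 there, against 2326 to 3383, and CALD1 1833 and 2020, against 3407 to 3742. The sum of 7 endothelial markers, of 15 listed, was 15667 to 22578 in the Dobermans and 17903 to 18974 in the Boxers. It was 12634 to 16358 in the paced dogs and 16963 to 22029 in the controls. Of the 7, 4 lay below all controls in the paced dogs, beside 18% of all tested probe sets. No marker of either list was at 0 in any array. Their part in the EDN1 and EDNRA results was not tested. In tissue RNA, fewer cells of a type and less RNA per cell cannot be told apart.

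EDNRB, the type B endothelin receptor, read 372, 311.5 and 206 in the Dobermans and 218 to 353 in the Boxers. It read 395, 296 and 299 in the paced dogs, against 175, 255.5 and 259.9 in the controls. It did not pass in any of the 6 comparisons, and the largest of the differences from the controls was 0.50 in the paced dogs (adjusted p = 0.239, limma). EDNRB was the 1 tested gene of the 6 on the endothelin list. ECE1 was not analysed here.

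AGTR2, the type 2 angiotensin receptor, which is often held to oppose the type 1 receptor, was highest in the paced dogs. Its tested probe set, 1583053_at, read 76.2, 158 and 143 in the Dobermans and 60.4, 83.3, 55.2 and 100.4 in the Boxers. It read 252, 217 and 359 in the paced dogs, against 104, 53.5 and 148 in the controls. Every paced sample lay above every other sample. AGTR2 rose by 1.37 ± 0.37 in the paced dogs relative to the controls (adjusted p = 0.0309, limma), a 2.58-fold level. The Boxers were lower than the paced dogs, with a log2 difference of -1.68 ± 0.35 (adjusted p = 0.00646), in 23 of 23 alternative fits. That comparison had 2 of 8 members passing, both lower, beside 17.7% of all tested probe sets (12.9% lower). The Dobermans differed from the paced dogs by -1.07 (adjusted p = 0.0519) and without L and R by -1.63 (adjusted p = 0.0406). Quantile normalization (adjusted p = 0.0336), median centring (adjusted p = 0.0475) or leaving out P4 (adjusted p = 0.0415) or P9 (adjusted p = 0.0498) also took that difference under the threshold.

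The other AGTR2 probe set, 1583054_at, had the same group highest at a low signal. It read 133, 17.3 and 119.8 in the paced dogs, against 2.7, 1.7 and 2.5 in the controls. It read 2.9, 9.7 and 36.5 in the Dobermans and 1.8 to 5.7 in the Boxers. The paced samples lay above all controls, and LV02 was the lowest of them in both sets. With no filter it passed in the paced dogs (2.26, adjusted p = 0.00603, limma), a size that depends on the constant of 16. The correlation of the 2 probe sets was 0.81.

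The paced AGTR2 rise moved with the scaling of the arrays. It was 0.92 after quantile normalization (adjusted p = 0.110, limma) and 0.86 after median centring (adjusted p = 0.0728). Leaving out LV01, LV02, LV04, P1 or P4 also lost it (adjusted p 0.0513 to 0.126). The paced arrays read higher among weak probe sets in general: of those under the filter, 40.8% had all 3 paced values above all 3 controls, and their median change was 0.53. Among the 8 tested members, 5 lay above and 2 below all controls in the paced dogs, beside 26.1% and 18% of all tested probe sets. After median centring the median of all tested probe sets was -0.45 in the paced dogs.

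AGTR1, the type 1 receptor, mediates most of the constricting and growth actions of angiotensin II. Its tested probe set, 1583043_at, read 193, 201.5 and 98.0 in the Dobermans and 335.5, 288, 208 and 438 in the Boxers. It read 325, 301 and 285 in the paced dogs, against 168, 215 and 192 in the controls. The paced dogs lay above all controls, and the Dobermans below all Boxers and all paced dogs. AGTR1 was lower in the Dobermans than in the Boxers, with a log2 difference of -0.90 ± 0.28 (adjusted p = 0.0254, limma), and lower than in the paced dogs, with -0.88 ± 0.30 (adjusted p = 0.0445). Relative to the controls the differences were -0.26 in the Dobermans (adjusted p = 0.524), 0.64 in the Boxers (unadjusted p 0.0364, adjusted p = 0.640) and 0.63 in the paced dogs (adjusted p = 0.180). The paced AGTR1 difference from the controls was 0.25 after quantile normalization and 0.12 after median centring.

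Between the Dobermans and Boxers 3 of 8 members passed, 1 higher and 2 lower, beside 35.4% of all tested probe sets (21.8% higher and 13.6% lower), and between the Dobermans and paced dogs 3 of 8 passed, 1 higher and 2 lower, beside 24.6% (13% higher and 11.5% lower). Doberman R held the lowest AGTR1 value of all 13. Without L and R the Doberman difference was -0.63 against the Boxers (adjusted p = 0.295, limma) and -0.61 against the paced dogs (adjusted p = 0.232). AGTR1 against the Boxers was also lost without R (-0.60, adjusted p = 0.109), Boxer 1 (adjusted p = 0.0571) or Boxer 4 (adjusted p = 0.0709). The AGTR1 comparison with the paced dogs was lost in 9 of the 13 fits that left out 1 sample, without R, Boxer 1, Boxer 2 or any paced or control sample (adjusted p 0.0553 to 0.154). The other AGTR1 probe set, 1583042_at, read 7.9, 9.4 and 2.3 in the Dobermans, 1.9 to 4.6 in the Boxers and 26.6, 13.1 and 33.8 in the paced dogs, against 5.6, 2.5 and 1.9 in the controls. These were among the weakest signals of the array, and with no filter the paced difference was 1.04 (adjusted p = 0.00706).

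Of the 21 other genes listed for the renin-angiotensin system, 5 were on the array and tested. In the Dobermans 2 of 5 passed against the controls, both higher, where 26% of 5242 tested genes passed (11.9% higher and 14.1% lower). In the paced dogs and the Boxers 0 of 5 passed, where 9.23% (5.19% higher and 4.04% lower) and 0.0572% did. At an unadjusted p under 0.05 there was 1 of 5 in each, beside 28.7% and 7.4% of all tested probe sets. The 2 that passed in the Dobermans were peptidases. MME, neprilysin, which cuts angiotensin and natriuretic peptides, read 222.5, 669 and 369.5 in the Dobermans, against 217, 181 and 182 in the controls (0.93 ± 0.31, adjusted p = 0.0422, limma). ANPEP, aminopeptidase N, which trims angiotensin peptides, read 327, 642.5 and 571 in the Dobermans, against 315, 281 and 236 in the controls (0.81 ± 0.26, adjusted p = 0.0388). For both genes K was nearest to the controls, and without L and R the differences were 0.19 for MME (adjusted p = 0.732) and 0.24 for ANPEP (adjusted p = 0.689). In the paced dogs MME read 371, 307 and 374, above all controls, and passed without L and R (0.81, adjusted p = 0.00688). AGT, the precursor of the angiotensins, did not pass against the controls in any of its 3 tested probe sets, with 0.44 to 0.71 in the Dobermans and 0.45 to 0.74 in the paced dogs (adjusted p 0.0568 to 0.203). The paced AGT difference of its brightest probe set passed without L and R (0.58, adjusted p = 0.0434). The other AGT probe sets, of 8 in all, were under the filter and were not tested. Of these, the brightest in the paced dogs read 344.5, 324.2 and 416.6 there, against 31, 49.7 and 62.8 in the controls. Its Doberman values were 122.5, 154.5 and 90.5. Another read 8.7, 7.5 and 8.7 in the paced dogs, against 52, 15.7 and 31.3 in the controls. In the rest all paced values lay above all controls, as in 40.8% of all probe sets under the filter. ACE was not analysed here.

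ADRA1A, the alpha-1A adrenergic receptor, answers noradrenaline and adrenaline through Gq. Its tested probe set, 1582842_at, read 45.7, 59.1 and 148 in the Dobermans and 130.8, 94.2, 64.3 and 85.8 in the Boxers. It read 211, 241 and 212 in the paced dogs, against 116, 152 and 167 in the controls. The paced dogs lay above all other samples. Relative to the paced dogs ADRA1A was lower in the Dobermans, with a log2 difference of -1.38 ± 0.36 (adjusted p = 0.0152, limma), and in the Boxers, with -1.14 ± 0.34 (adjusted p = 0.0323). Against the controls the differences were -0.81 in the Dobermans (adjusted p = 0.104), -0.57 in the Boxers (adjusted p = 0.771) and 0.57 in the paced dogs (adjusted p = 0.316). The paced ADRA1A difference from the controls was 0.08 after quantile normalization and 0.06 after median centring.

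Over all tested probe sets, median centring moved the median Doberman difference from the controls from 0.19 to -0.25. For ADRA1A, Doberman R, and not K, lay with the controls. The Doberman difference from the controls passed without R (-1.23, adjusted p = 0.0329, limma), after quantile normalization (-1.23, adjusted p = 0.0222) and after median centring (-1.25, adjusted p = 0.0171), and was -1.37 without L and R (adjusted p = 0.0727). That from the paced dogs was -1.94 without L and R (adjusted p = 0.00633) and was lost without LV02 (-1.32, adjusted p = 0.0516), with array weights (-1.03, adjusted p = 0.105) and in a fit of only those groups (adjusted p = 0.112). The Boxer difference from the paced dogs was -0.57 after quantile normalization (adjusted p = 0.221) and after median centring (adjusted p = 0.145), and was lost without Boxer 2, 3 or 4 or any paced sample (adjusted p 0.0628 to 0.0964). The other ADRA1A probe set, 1582843_at, read 17.4, 35.7 and 16.5 in the Dobermans, 5.9 to 11.2 in the Boxers and 34.5, 22.8 and 26.0 in the paced dogs, against 12.1, 9.9 and 13.5 in the controls. Both Doberman and paced values lay above those of the controls in this weak set, and its correlation with the tested set was 0.27.

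**Figure D3:**
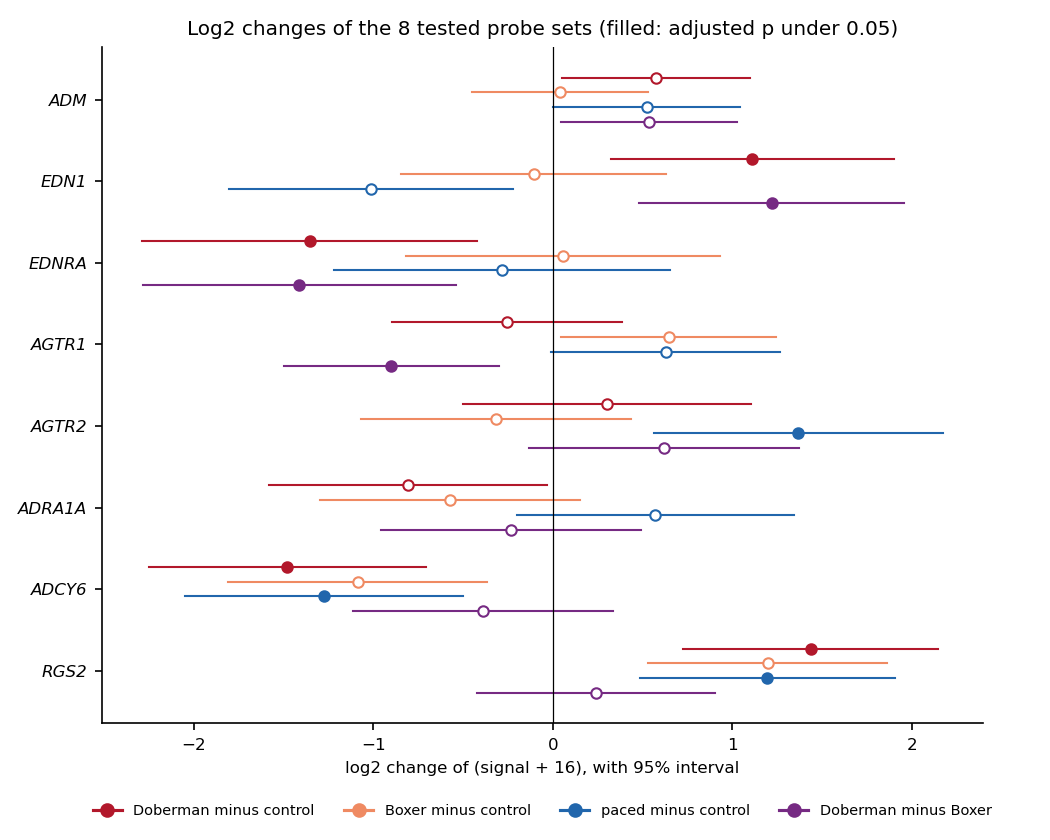
Log2 change of (signal + 16) with 95% intervals for the 8 tested probe sets in 4 comparisons, filled where the adjusted p was under 0.05. ADCY6 and RGS2 had the same sign in Dobermans, Boxers and paced dogs relative to the controls, and EDN1 had opposite signs in Dobermans (1.11) and paced dogs (-1.01).

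ADM encodes adrenomedullin. Its signal was 2790.1, 2101 and 1472 in the Dobermans and 1297.5, 1761, 1394 and 1242 in the Boxers. It was 2307, 1821 and 1842 in the paced dogs, against 1388.5, 1706 and 1091 in the controls. The paced dogs lay above all controls, and the Dobermans overlapped with them. ADM passed in none of the 6 comparisons, with 0.57 ± 0.24 in the Dobermans (adjusted p = 0.0903, limma), 0.52 ± 0.24 in the paced dogs (adjusted p = 0.174) and 0.04 in the Boxers (95% interval -0.45 to 0.53). The Doberman difference passed without R (0.81, adjusted p = 0.0424) and after quantile normalization (0.71, adjusted p = 0.0491), and was 1.02 without L and R (adjusted p = 0.0611). After median centring the differences from the controls were 0.13 in the Dobermans (adjusted p = 0.768) and 0.01 in the paced dogs (adjusted p = 0.975). Over the Boxers the Dobermans were higher by 0.54 (adjusted p = 0.0789), a difference that passed without R (0.77, adjusted p = 0.0335) and after quantile normalization (0.68, adjusted p = 0.0375), and was 0.03 after median centring (adjusted p = 0.948).

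Of 11 other genes of the adrenomedullin system, 3 were on the array and 2 were tested, and both were lower in the Dobermans, where 14.1% of all tested genes were lower. PAM, the enzyme that forms the amidated end of adrenomedullin and other peptides, read 5103, 5184.5 and 4255.5 in the Dobermans and 5707 to 6334 in the Boxers. It read 3159, 3447 and 3600.0 in the paced dogs, against 9031.5, 7928 and 7000.1 in the controls. All samples of the 3 other groups lay below the lowest control. PAM fell by 1.22 ± 0.16 in the paced dogs (adjusted p = 0.000997, limma) and by 0.72 ± 0.16 in the Dobermans (adjusted p = 0.0107), and the Boxer difference was -0.40 (adjusted p = 0.561). The paced fall passed without L and R, with the GAPDH covariate and after quantile normalization (-1.03) and median centring (-1.73). Over all tested probe sets, median centring moved the median paced difference from 0.06 to -0.45. The Doberman fall was -0.64 without L and R (adjusted p = 0.0606). Of 2 further tested PAM probe sets, 1604356_at was lower in the Dobermans (-2.05, adjusted p = 0.0208) and the other was not (0.07), and neither passed in the paced dogs. The first read 2839, 503 and 288 in K, L and R, against 2883, 3591 and 3045 in the controls, and was -0.15 without L and R (adjusted p = 0.725). In that fit it passed in the paced dogs (-0.95, adjusted p = 0.000904).

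RAMP2, which pairs with the calcitonin receptor-like receptor to form an adrenomedullin receptor, read 1220, 814 and 629 in the Dobermans, against 1371, 1695 and 1212 in the controls. It fell by 0.71 ± 0.23 in the Dobermans (adjusted p = 0.0382, limma), and the difference was -0.21 without L and R (adjusted p = 0.652). In the paced dogs the difference was -0.27 (adjusted p = 0.473). CALCRL, RAMP1 and RAMP3 were not analysed here.

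**Figure D4:**
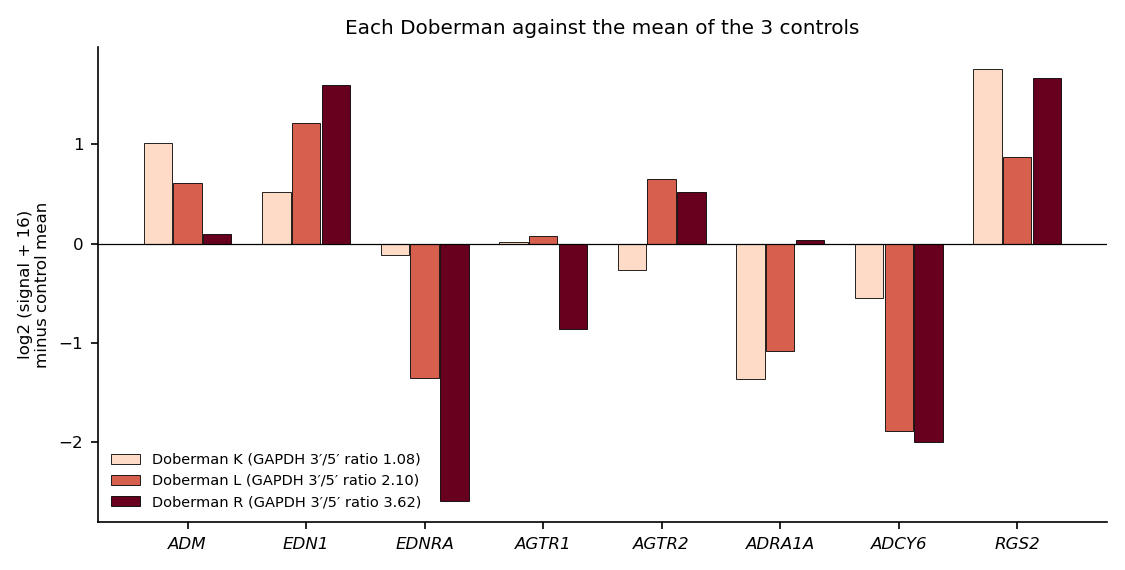
Log2 (signal + 16) of each Doberman minus the mean of the 3 controls, for the 8 tested probe sets, with bars for K, L and R in the order of their GAPDH 3'/5' ratio (1.08, 2.10 and 3.62). EDN1 rose and EDNRA fell along that order, ADM and ADRA1A were farthest from the controls in K, and RGS2 was above the controls in all 3.

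Within the Dobermans the members divided by sample. Relative to the control mean, K was at -0.12 for EDNRA, 0.52 for EDN1 and -0.55 for ADCY6, and at 1.76 for RGS2, -1.37 for ADRA1A and 1.02 for ADM. Without L and R, RGS2 was the 1 member of 8 that passed against the controls, beside 2.63% of all tested probe sets. In the same fit 5 of 8 members passed in the paced dogs, beside 30.8% of all, with ADM (adjusted p = 0.0481, limma) and EDN1 added to RGS2, ADCY6 and AGTR2.

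Among genes around ADRA1A and ADCY6, 6 adrenergic receptor and regulator genes and 8 cyclic AMP genes were tested, of 27 and 34 listed. Of the 6, 0 passed against the controls in any of the 3 groups in limma. Of all tested genes, 26% passed in the Dobermans, 0.0572% in the Boxers and 9.23% in the paced dogs. At an unadjusted p under 0.05 there were 1 of the 6 in the Dobermans, 0 in the Boxers and 2 in the paced dogs. Of all tested probe sets, 42.5%, 7.4% and 28.7% reached that level. MAOB, which breaks down amines, read 164, 181.5 and 42.4 in the paced dogs, against 361, 269.8 and 249.6 in the controls (-1.26 ± 0.40, adjusted p = 0.0552), and passed without L and R (adjusted p = 0.0262). The Boxers, at 412 to 589, were higher in MAOB than the paced dogs by 1.95 (adjusted p = 0.00446). ADRB1, ADRA1B and GRK2 were not analysed here.

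Of the 8 cyclic AMP genes, 1 was higher and 1 lower in the Dobermans, and 1 was higher in the paced dogs, beside 26% of all tested genes in the Dobermans (11.9% higher and 14.1% lower) and 9.23% in the paced dogs. AKAP13, an anchor protein for protein kinase A, read 2882, 4487 and 2887 in the Dobermans and 1775.5 to 2055 in the Boxers. It read 2836, 2267.5 and 1753.5 in the paced dogs, against 1220.2, 1255 and 1393 in the controls. All other samples lay above the controls. AKAP13 rose by 1.37 ± 0.21 in the Dobermans (adjusted p = 0.00346, limma), by 1.15 without L and R (adjusted p = 0.0252), and by 0.79 ± 0.21 in the paced dogs (adjusted p = 0.0281). The paced rise was 0.28 after median centring (adjusted p = 0.318). Of its 3 other tested probe sets, 1605402_at rose in the Dobermans (1.74, adjusted p = 0.00727; 0.96 without L and R, adjusted p = 0.175), the other 2 did not pass there, and none passed in the paced dogs.

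BVES, a cyclic AMP-binding membrane protein of muscle, read 752, 444 and 778 in the Dobermans, against 1684, 1035 and 1281 in the controls. It fell by 1.02 ± 0.25 (adjusted p = 0.0156, limma), and the difference was -0.79 without L and R (adjusted p = 0.162). For ADCY5 the brighter probe set, 1582766_at, was near the controls in the Dobermans (-0.08) and the paced dogs (-0.09), with adjusted p of 0.725 and 0.759. Its other probe set, 1582551_at, rose by 0.67 in the Dobermans (adjusted p = 0.0418; 0.48 without L and R, adjusted p = 0.340) and by 0.83 in the paced dogs (adjusted p = 0.0281), so the 2 ADCY5 probe sets disagreed.

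Among Gq signalling and RGS genes other than RGS2, 10 were tested of 37 listed. Against the controls 2 of the 10 were lower in the Dobermans, where 14.1% of all tested genes were lower. In the Boxers and the paced dogs 0 passed (1 and 0 at an unadjusted p under 0.05, beside 7.4% and 28.7% of all tested probe sets). These counts use the brightest tested set of each gene. For RGS10 a weaker one, 1603971_s_at, was higher in the Dobermans (1.34, adjusted p = 0.028, limma). It read 808, 2443.5 and 970.4 in Dobermans K, L and R, against 561, 512 and 388.9 in the controls. K lay nearest to the controls, and the difference without L and R is not given here for this probe set. Another, 1594829_at, was higher in the paced dogs (1.28, adjusted p = 0.024). The brightest RGS10 set passed in neither group. PLCB4, a phospholipase that Gq activates, read 191, 11.6 and 18.7 in the Dobermans, against 177, 184 and 158 in the controls (-1.69 ± 0.54, adjusted p = 0.0384, limma). ITPR2, a calcium release channel opened by the product of that enzyme, read 86.6, 15.0 and 82.7 in the Dobermans, against 108.5, 203 and 174 in the controls (-1.35 ± 0.44, adjusted p = 0.04). Without L and R the differences were 0.14 for PLCB4 (adjusted p = 0.814) and -0.75 for ITPR2 (adjusted p = 0.375). In the paced dogs PLCB4 read 266, 334 and 296, all above the controls, and passed without L and R (0.73, adjusted p = 0.0109). Between Dobermans and paced dogs PLCB4 (-2.43, adjusted p = 0.00766) and ITPR2 (-1.88, adjusted p = 0.00932) were lower in the Dobermans, and without L and R neither passed (-0.60, adjusted p = 0.131, and -1.29, adjusted p = 0.0617).

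**Figure D5:**
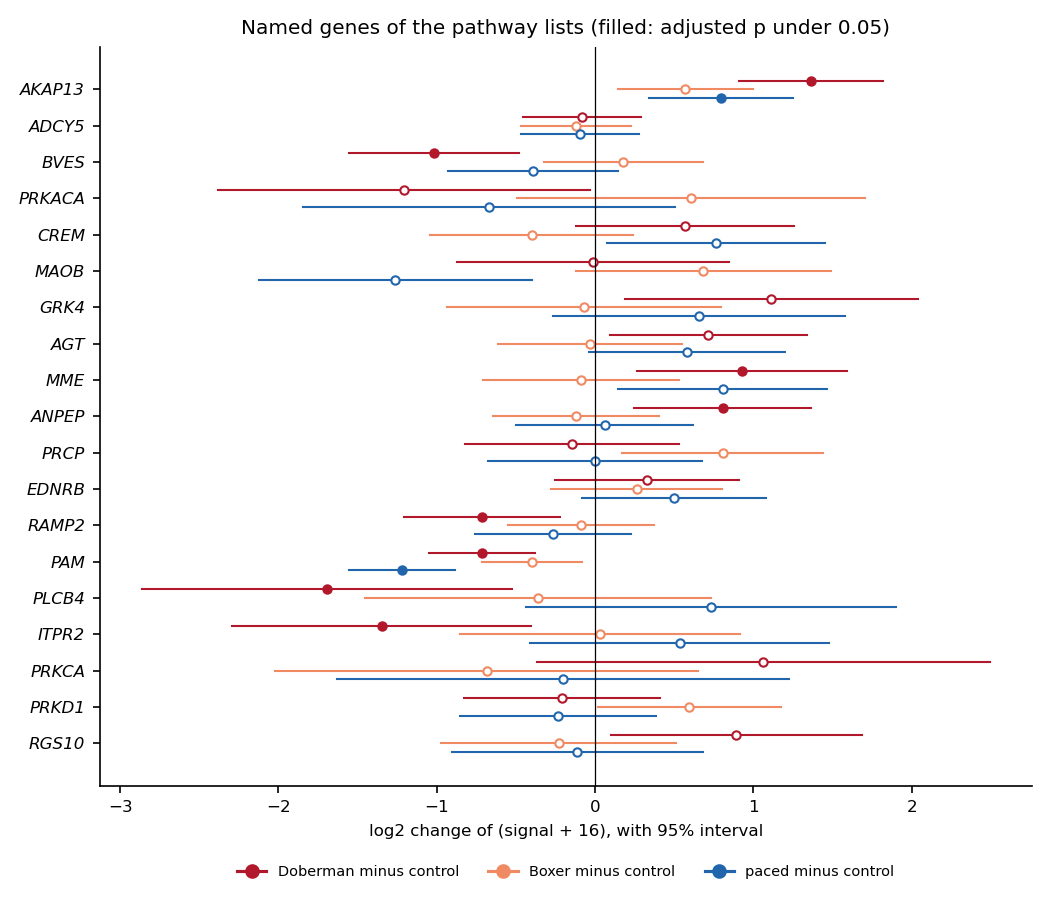
Log2 change of (signal + 16) with 95% intervals for named genes of the 6 pathway lists, for Dobermans, Boxers and paced dogs relative to the controls, filled where the adjusted p was under 0.05. PAM was below and AKAP13 above the controls in Dobermans and paced dogs, and no Boxer point was filled.

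Each member was also set beside the 5099 other named genes, by the correlation of log2 values over the 13 arrays, which share the same groups and array quality. RGS2 was most like TGM2 (0.91), FCGR1A (0.88) and CYP1B1 (0.85). ADCY6 was most like CORIN (0.92), the enzyme that activates atrial natriuretic peptide, then MED12 (0.92) and OXSM (0.91). AGTR2 was most like CA6 (0.93), UNC5C (0.93) and SENP2 (0.91), and AGTR1 like AGMAT (0.87), PDLIM3 (0.87) and ME1 (0.87). ADRA1A was most like MBD1 (0.91), SMARCC2 (0.89) and C7H18orf25 (0.85), and ADM like IRF9 (0.86), WFDC1 (0.85) and OLFML2B (0.84). EDN1 was most like ZNF7 (0.93), SREBF1 (0.92) and MTX1 (0.92). EDNRA was most like SYPL1 (0.97), C1D (0.97) and RACK1 (0.96), and without L and R these correlations were 0.58, 0.68 and 0.66. For the other 7 members the 3 correlations without L and R were 0.78 to 0.98.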

How the data were processed

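Total RNA of heart tissue was labelled with biotin in 1 cycle and hybridised to a canine Affymetrix array, per the labels' protocols. The deposited values are signal intensities on a linear scale, made by the authors with MAS5, per the submitters' processing notes; its version, and the genome build, are not given in the sources used here. The 2% trimmed mean of each array was 500.06 to 500.08, and the number of arrays limits the precision.

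The 77 control probe sets were set aside, values were taken as log2(signal + 16), and probe sets with a mean under the 40th percentile (6.95) were left out. Of the other probe sets, 10549 had 1 symbol in the array annotation, 138 several and 13149 none. Reference gene identifiers changed 0 symbols. Group means of the 13 arrays were estimated together with limma 3.58.1 under R 4.3.3, which left 9 degrees of freedom for the spread, and 6 contrasts were tested with trended variances and Benjamini-Hochberg adjustment at 0.05. A gene outside the members was represented by its tested probe set of highest mean signal. The procedure was tested on simulated data. Fits that left out samples kept the same 14302 probe sets, a choice made after seeing the data, as was refitting the pathway lists without Dobermans L and R, with other scalings and with the GAPDH covariate, refitting other probe sets without L and R, and summing markers without DES.

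All members were named. Of each pathway list, up to 4 passing genes of smallest adjusted p in a comparison, and a set of receptors and enzymes whatever their result, could be named. The members and lists were chosen with earlier results of these data known, and the lists are no independent evidence. Alternatives were no filter, pseudocounts of 1 and 64, median centring, quantile normalization, array weights, only the groups compared, the GAPDH ratio as a covariate, 1 probe set a gene, and leaving out samples. Figures were drawn with matplotlib 3.10.9 (Python 3.11.15).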

Additional observations from a re-analysis of the deposited data

Results flagged for a closer look

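For AGTR1, EDN1 and EDNRA the difference between Dobermans and Boxers was itself tested and passed, at -0.90, 1.22 and -1.41 (log2, limma); without Dobermans L and R none of the 3 passed. Dixon's test at 95%, which chance passes in about 1 of 20 groups, was run in the Boxers on all 14 member probe sets. In the weaker RGS2 probe set, Boxer 3 read 6.8 and stood apart from the other Boxers by that test on the log2(signal + 16) scale. Its gap to the next Boxer was 0.846 times the range of the Boxers on that scale and 0.727 times on the linear signal, where it did not pass.

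Several probe sets that entered no test had all values of a group above all controls. In the Dobermans these were ADRA1A 1582843_at with a mean signal of 23.2, AGTR2 1583054_at with 16.4 and RGS2 1585658_at with 372, against 11.8, 2.3 and 66.9 in the controls. In the Boxers EDN1 1583003_at averaged 125, against 80.9 in the controls. In the paced dogs ADRA1A 1582843_at averaged 27.8, AGTR1 1583042_at 24.5, AGTR2 1583054_at 90.0, EDN1 1583002_at 220.2 and RGS2 1585658_at 127, against 11.8, 3.33, 2.3, 79.9 and 66.9 in the controls. Of all probe sets under the filter, 22.7% in the Dobermans, 2.67% in the Boxers and 40.8% in the paced dogs lay wholly above the controls.

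The array's control probe sets include 3 for an adrenergic receptor whose type is not stated. The 5' one averaged 65.7 in the Dobermans, against 23.5 in the controls. The 3' one averaged 450.3 in the paced dogs, against 369 in the controls, and the middle one 276 in the paced dogs, against 126 in the controls.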

How the results depend on the processing

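Of 15 member changes that passed, 250 of their 345 alternative fits kept the call and 95 lost it, and 0 reversed. Of 33 that did not pass, 723 of 759 alternatives also did not, 36 did, and in 37 the sign changed with neither passing. Members passing, relative to 4 in Dobermans over controls, numbered 0 in a fit of only those groups, 0 with the GAPDH covariate and 1 without Dobermans L and R, and 1 to 4 when 1 sample was left out. For Boxers over controls (0) there were 2 with array weights and 0 when 1 sample was left out. For paced dogs over controls (3) there were 1 after quantile normalization, 5 without L and R, and 0 to 4 with 1 sample left out. For Dobermans over Boxers (3) there were 1 in only those groups, 0 with the covariate, 0 without L and R and 1 to 5 with 1 sample left out. For Dobermans over paced dogs (3) there were 1 in only those groups, 1 with the covariate and 1 to 4 with 1 sample left out. For Boxers over paced dogs (2) there were 4 with array weights, 4 without L and R and 1 to 3 with 1 sample left out. The GAPDH ratio was high only in Dobermans L and R, so the fit with it as a covariate rests mainly on K against L and R. The ratio cannot be told apart from any other trait of L and R. The cause of the other changes was not tested. No paired analysis was possible because the sample names share no replicate numbers.

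Over all probe sets, 3644 passed in Dobermans over controls, 20 in only those groups, 95 with the covariate, 376 without L and R, 1441 counting 1 probe set a gene and 1192 to 7349 with 1 sample left out. For Boxers over controls 6 passed, against 25 in only those groups, 254 with array weights, 118 without L and R, 3 counting 1 a gene and 5 to 13 with 1 left out. For paced dogs over controls 1747 passed, against 3924 after median centring, 4389 with no filter, 3576 in only those groups, 4222 with array weights, 2935 with the covariate, 4407 without L and R, 416 counting 1 a gene and 811 to 3315 with 1 left out. For Dobermans over Boxers 5066 passed, against 2114 in only those groups, 56 with the covariate, 304 without L and R, 1832 counting 1 a gene and 2213 to 8110 with 1 left out. For Dobermans over paced dogs 3514 passed, against 5974 with no filter, 524 in only those groups, 1028 with the covariate, 2265 without L and R, 1383 counting 1 a gene and 2138 to 6183 with 1 left out. For Boxers over paced dogs 2536 passed, against 5403 after median centring, 5720 with no filter, 5197 in only those groups, 5280 with array weights, 5126 without L and R, 652 counting 1 a gene and 1287 to 4152 with 1 left out. Higher and lower calls in Dobermans over controls were 2047 and 1597, 1075 and 1649 after quantile normalization, and 507 and 3115 after median centring; in paced dogs over controls they were 1212 and 535, 633 and 848, and 530 and 3394.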
